A study of Mus musculus with 7 samples.

Results

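Trp53, the mouse gene for the tumour suppressor p53, and 9 genes that p53 is known to switch on were followed in 4T1 mammary tumours given vesicles of other 4T1 cells. The 10 genes (Trp53, Cdkn1a, Mdm2, Ccng1, Trp53inp1, Bax, Gdf15, Plk2, Sesn2 and Phlda3) were taken by symbol, and each matched 1 of the 55487 genes in the deposited table. Wild-type BALB/c mice carried tumours of 4T1-12b(luc) cells, a luciferase-bearing derivative of the BALB/c mammary carcinoma line 4T1, in a mammary fat pad. Once a tumour measured about 150 mm3, a 50 µl dose was injected into it every other day, 6 times in all, and every library is labelled day 12. The dose was saline (3 libraries), Cont sEV (1 library) or TIS sEV (3 libraries). The abbreviation sEV stands for small extracellular vesicles, the membrane particles that cells shed. The donors of Cont sEV were 4T1 cells kept in DMSO, and those of TIS sEV were 4T1 cells driven into senescence by 100 ng/ml nocodazole, a microtubule poison (TIS for therapy-induced senescence). The table heads its vesicle columns CE and NcE, which were read as Cont sEV and TIS sEV without a label that spells this out. Vesicle donors had been treated for 72 h and then released into fresh medium for 72 h before their medium was collected. The labels do not say whether replicates are separate animals, so p-values measure only the spread between these libraries, and a group of 1 library has no spread of its own.

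p53 is a transcription factor that damaged or stressed cells stabilise. Its targets include Cdkn1a, whose product p21 blocks cyclin-dependent kinases and is raised in most senescent cells, Mdm2, whose product marks p53 for degradation and closes a feedback loop, and Bax, a pore-forming killer protein of mitochondria. Several of these genes also answer to signals other than p53, such as TGF-beta for Cdkn1a and the ATF4 stress pathway for Gdf15 and Sesn2. The 4T1 line is widely described as lacking functional p53, whereas the fibroblasts, vessels and leukocytes of the host carry an intact gene. RNA of a whole tumour does not separate these sources, and fewer cells of a type and less RNA per cell cannot be told apart.

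The DNA that p53 recognises is a pair of 10-base half-sites, and the promoters were searched for these because they are the feature the targets are expected to share. RefSeq promoter windows (GRCm38.p6, 250 bases before to 50 bases after an annotated start) were found for 9 of the 10 genes, 11 windows in all. The p53 half-site consensus, which is its own reverse complement, was searched without mismatches. It was found in windows of 5 of the 9 genes, namely Trp53, Cdkn1a, Mdm2, Ccng1 and Bax, against 9.55% of all 27025 genes with a window and 8.36% of all 32851 windows. A pair of half-sites at most 13 bases apart stood in 24 of all windows (0.0731%), and the upstream window of Cdkn1a was 1 of them. Its half-sites began 73 and 51 bases before the start and were separated by 12 bases (chr17:29090906-29090937, + strand). The 10 bases that directly follow the second of them differ from the consensus at their first base only. A search without mismatches does not mark these bases, so a pair made with them was not counted. A match is a description of letters and not evidence of binding, and response elements further away or inside introns lie outside these windows. The 150 bases before the upstream Cdkn1a start (chr17:29090829-29090978, + strand) and 30-base stretches of the other 4 promoters follow, 5′ to 3′ on the gene's strand, with each half-site in capitals.
Cdkn1a: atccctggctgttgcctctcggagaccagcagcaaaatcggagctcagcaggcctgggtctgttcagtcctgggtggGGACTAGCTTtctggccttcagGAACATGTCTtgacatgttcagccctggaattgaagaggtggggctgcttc
Trp53 (chr11:69580274-69580303, + strand): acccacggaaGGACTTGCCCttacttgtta
Mdm2 (chr10:117710925-117710954, - strand): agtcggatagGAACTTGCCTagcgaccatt
Ccng1 (chr11:40755452-40755481, - strand): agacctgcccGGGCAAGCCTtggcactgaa
Bax (chr7:45467080-45467109, - strand): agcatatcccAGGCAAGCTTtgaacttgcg

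Expression was deposited as TPM, a level corrected for transcript length and scaled to a fixed sum in each library. TIS sEV replicate 2 stood apart from the others. The share of ribosomal RNA genes was 22.9% there and 0.807% to 2.40% elsewhere, and nuclear protein-coding genes took 28.6% against 56.8% to 74.7%. With deposited TPM the median gene was -0.33 (log2) in Cont sEV against saline, although ribosomal RNA genes took 1.39% of that library. In TIS sEV against saline the median gene was -0.62, and what part of this came from TIS sEV replicate 2 was not tested. Levels are given below as scaled TPM, the deposited value divided by a size factor (the median ratio to the mean library over 11848 genes, 0.355 in TIS sEV replicate 2 and 1.00 to 1.52 in the others), which brought that median to -0.0037. Scaled values also followed transcript length. Genes with a longest transcript of up to 1000 bases had medians of 0.15, 0.83 and 0.48 above the saline mean (log2) in TIS sEV replicates 1, 2 and 3 and 0.62 in Cont sEV. Genes of 4000 to 8000 bases had medians of -0.085, -0.31 and -0.18 in TIS sEV and -0.21 in Cont sEV, and saline libraries stayed between -0.085 and 0.14 in these 2 classes. Differences below are also given with that trend removed where this moved them by more than 1.5 times, and for some others. Differences are in log2(scaled TPM + 1), fitted with limma on all 12058 genes that reached 1 TPM in at least 3 libraries.

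**Figure D1:**
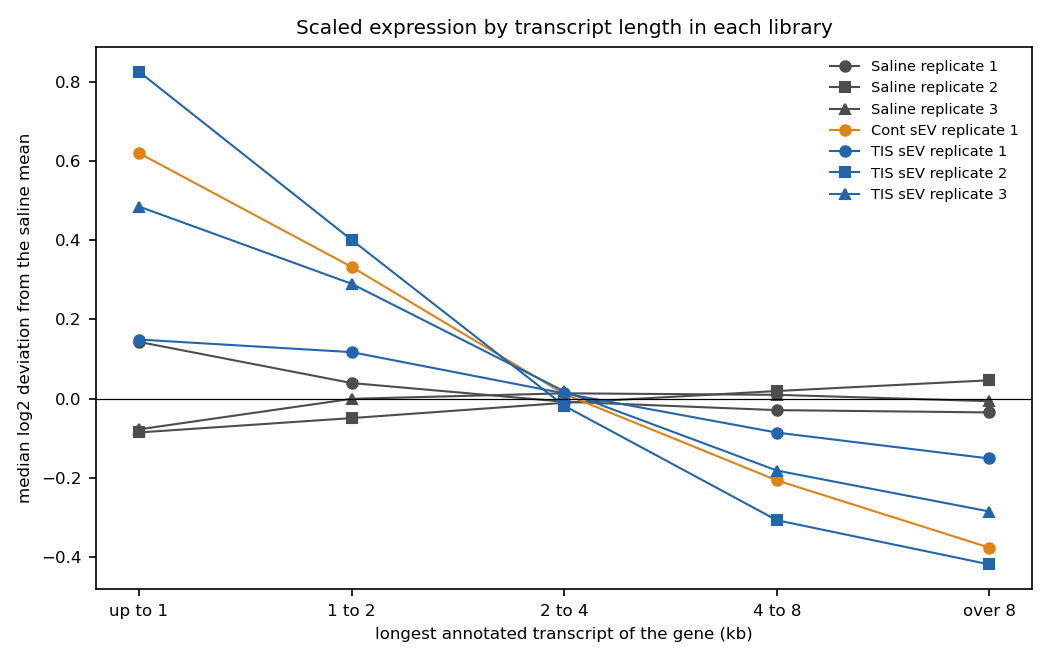
Median log2 deviation of scaled expression from the saline mean (y axis) for tested protein-coding genes grouped by the length of their longest annotated transcript (x axis, kb), 1 line per library. The Cont sEV and TIS sEV lines run from above 0 for short transcripts to below 0 for long ones, steepest in TIS sEV replicate 2 (0.83 to -0.42) and shallowest in TIS sEV replicate 1 (0.15 to -0.15).

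Trp53 (chromosome 11, 69580359 to 69591873, GRCm38) was plainly transcribed in every library. Deposited TPM was 12.6, 22.1 and 20.3 with saline, 12.99 with Cont sEV and 19.5, 7.79 and 14.7 with TIS sEV. Scaled, these values became 12.4, 14.5 and 13.3 with saline, 12.9 with Cont sEV and 15.5, 21.9 and 14.7 with TIS sEV. The scaled TIS sEV values lay above all saline values, 2 of them by little and TIS sEV replicate 2 by more, whereas the deposited values overlapped. Averaged over the 7 libraries, Trp53 stood above 65.0% of the tested protein-coding genes. The difference between TIS sEV and saline was 0.33 (SE 0.21, limma adjusted p = 0.440), 0.17 without TIS sEV replicate 2 and -0.41 with deposited TPM. Its processed pseudogene Trp53-ps did not exceed 0.0473 TPM, and the p53-induced long noncoding RNA Trp53cor1 did not exceed 0.0318 TPM, in any library. These are RNA levels of a whole tumour, and they carry no information on whether the transcripts encode an intact protein.

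Cdkn1a (chromosome 17, 29090976 to 29100727), the gene for p21, had, of the 9 tested genes of the set, one of the 3 largest differences between TIS sEV and saline, with Plk2 and Phlda3. Its deposited TPM was 19.9, 24.1 and 27.3 with saline, 24.9 with Cont sEV and 37.6, 12.1 and 22.3 with TIS sEV. Scaled TPM was 19.6, 15.9 and 17.9 with saline, 24.7 with Cont sEV and 29.9, 33.9 and 22.2 with TIS sEV. Every vesicle-treated library thus had more scaled Cdkn1a RNA than every saline library, and the lowest TIS sEV value (22.2) was close to the highest saline value (19.6). Group means were 17.8 ± 1.89 with saline and 28.7 ± 5.94 with TIS sEV (SD, n = 3 each). The difference was 0.64, or 1.56-fold (SE 0.21, 95% interval 0.15 to 1.14, limma unadjusted p = 0.0183), and did not pass adjustment over all genes (adjusted p = 0.338). It was 0.52 without TIS sEV replicate 2, 0.51 with the length trend removed and 0.40 with both. The direction depended on the scaling, at 0.33 with TPM rescaled over protein-coding genes and -0.11 with deposited TPM.

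Mdm2 (chromosome 10, 117688875 to 117710758), itself a p53 target and the main brake on p53, leaned the other way. It was at 18.3, 19.3 and 13.8 scaled TPM with saline, at 13.6 with Cont sEV and at 16.5, 9.34 and 12.2 with TIS sEV. The groups overlapped, since TIS sEV replicate 1 exceeded saline replicate 3, and the lowest value was that of TIS sEV replicate 2. The difference was -0.43 (SE 0.25, limma adjusted p = 0.422) and -0.24 without TIS sEV replicate 2.

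Ratios of 2 genes within a library do not depend on any size factor, and they set these opposite leanings side by side. The ratio of Cdkn1a to Mdm2 in deposited TPM was 1.07, 0.822 and 1.30 in the saline libraries, 1.82 with Cont sEV and 1.81, 3.63 and 1.82 with TIS sEV. All 4 vesicle-treated libraries lay above all 3 saline libraries, and 3 of the 4 had nearly the same ratio. On the log2 scale the mean was 0.064 ± 0.33 with saline and 1.19 ± 0.58 with TIS sEV (SD, n = 3 each), 1.13 apart and 0.80 apart without TIS sEV replicate 2. This pair was picked after the values were seen, so the gap is a description with no test. The ratio of Bax to Mdm2 was 3.98, 3.88 and 5.25 with saline and 4.85, 10.9 and 9.02 with TIS sEV. Those groups overlapped, and Cont sEV stood at 6.81. A ratio shows unequal levels and not which gene differed. The longest Cdkn1a transcript has 2080 bases and that of Mdm2 3145, and with the length trend removed the differences between TIS sEV and saline were 0.51 and -0.39.

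Against Trp53 itself, 7 of the 9 targets had ratios that overlapped between saline and TIS sEV. Cdkn1a stood at 1.59, 1.09 and 1.34 transcripts per Trp53 transcript with saline, 1.92 with Cont sEV and 1.93, 1.55 and 1.51 with TIS sEV. Overlap was likewise seen for the ratios of Mdm2, Ccng1, Bax, Gdf15, Plk2 and Phlda3 to Trp53. The groups did not overlap for the other 2, Trp53inp1 and Sesn2. Trp53inp1 stood at 0.0998, 0.0858 and 0.0810 per Trp53 transcript with saline, 0.0198 with Cont sEV and 0.0478, 0.0396 and 0.0417 with TIS sEV. Sesn2 stood at 0.155, 0.137 and 0.198 with saline, 0.0983 with Cont sEV and 0.115, 0.112 and 0.0810 with TIS sEV. Both ratios were lower in every vesicle-treated library than in every saline library. The share of all tested genes whose ratio to Trp53 did not overlap was not computed, so these counts have no background. Trp53inp1 reached 1 deposited TPM with saline only. Its longest transcript has 5432 bases and that of Trp53 3275, and the ratios were not corrected for the length trend. With that trend removed, the difference of Trp53inp1 alone was -0.14, with overlapping groups.

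**Figure D2:**
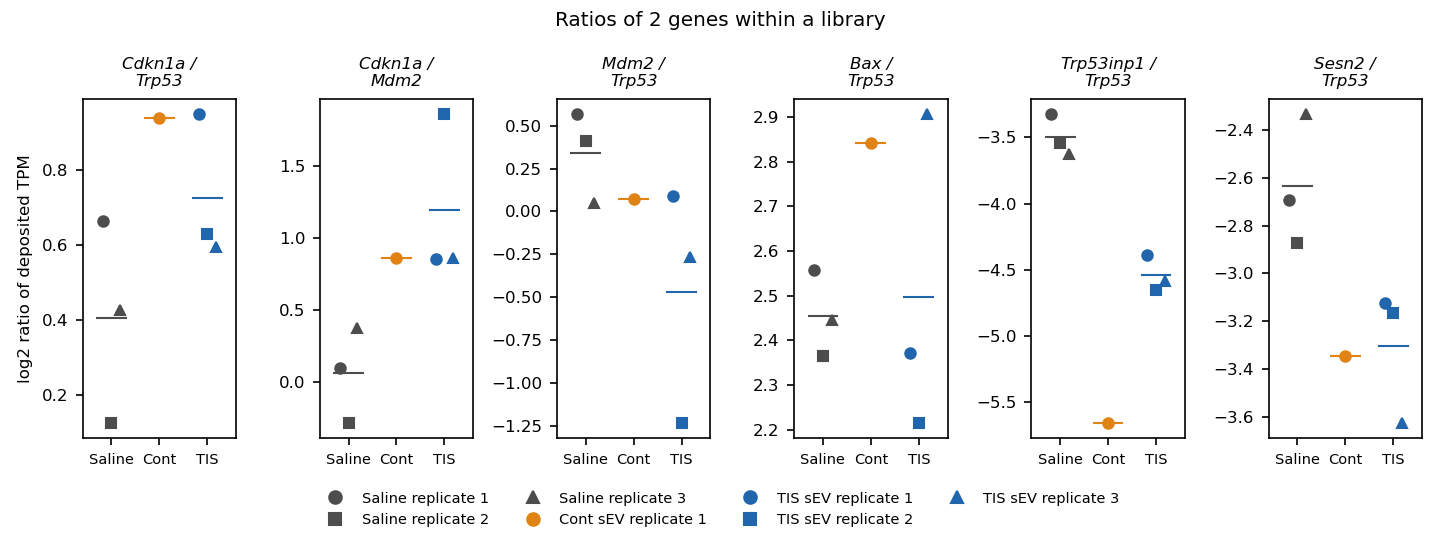
Log2 ratios of deposited TPM between 2 genes of the same library (y axis) for saline, Cont sEV and TIS sEV tumours, with 1 symbol per library and a bar at the group mean. The ratio of Cdkn1a to Mdm2 is higher, and those of Trp53inp1 and Sesn2 to Trp53 are lower, in all 4 vesicle-treated libraries than in the 3 saline libraries, while the Cdkn1a, Mdm2 and Bax ratios to Trp53 overlap between saline and TIS sEV.

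Among the effectors of cell death and growth control, Bax was the most abundant. Bax (chromosome 7, 45461697 to 45466898) was at 72.9, 74.8 and 72.6 scaled TPM with saline, 92.2 with Cont sEV and 80.2, 102 and 110 with TIS sEV. All vesicle-treated values lay above the narrow saline range. The difference was 0.39 (SE 0.19, limma adjusted p = 0.367). Bax has the shortest transcripts of the set (up to 1100 bases), and with the length trend removed its difference was 0.058 and the groups overlapped.

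Phlda3 (chromosome 1, 135766119 to 135769136), which restrains the survival kinase Akt, was at 15.7, 13.2 and 12.9 scaled TPM with saline, 18.8 with Cont sEV and 16.5, 24.4 and 26.1 with TIS sEV. The groups did not overlap, although TIS sEV replicate 1 was close to saline replicate 1. The difference was 0.63, or 1.54-fold (SE 0.22, limma unadjusted p = 0.0255, adjusted p = 0.338), and 0.36 with the length trend removed. Plk2 (chromosome 13, 110395046 to 110400844), a polo-like kinase with a role in centriole duplication, was at 4.97, 4.09 and 3.14 scaled TPM with saline, 5.59 with Cont sEV and 9.61, 6.03 and 5.32 with TIS sEV. Here TIS sEV replicate 1 was the highest and the lowest TIS sEV value lay just above the highest saline value. Its difference of 0.64, or 1.55-fold (SE 0.26, limma unadjusted p = 0.0448, adjusted p = 0.338), was 0.41 without TIS sEV replicate 1, 0.73 without replicate 2 and 0.62 with the length trend removed. Ccng1 (chromosome 11, 40748552 to 40755311), which encodes the atypical cyclin G1, ranged from 5.04 to 7.41 scaled TPM with saline and from 6.74 to 15.8 with TIS sEV, and was at 5.53 with Cont sEV. Its high value belonged to TIS sEV replicate 2, and the difference of 0.57 (SE 0.33, limma adjusted p = 0.419) was 0.22 without that library.

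The remaining targets were scarce. Trp53inp1 (chromosome 4, 11156431 to 11174379), a stress protein that promotes autophagy and cell death, was at 1.24, 1.25 and 1.08 scaled TPM with saline, 0.255 with Cont sEV and 0.741, 0.869 and 0.613 with TIS sEV. The groups did not overlap, also in deposited TPM. It reached 1 deposited TPM in the 3 saline libraries only, so it entered the test through the group in which it is high, and its difference of -0.33 (SE 0.16, limma adjusted p = 0.367) supports nothing by itself. Its longest transcript, 5432 bases, is also the longest of the set. With the length trend removed its difference was -0.14 and the groups overlapped. Sesn2 (chromosome 4, 132492032 to 132510501), a stress-induced inhibitor of mTORC1, ranged from 1.91 to 2.64 scaled TPM with saline and from 1.19 to 2.45 with TIS sEV, a difference of -0.20 (SE 0.23, limma adjusted p = 0.653). It was -0.13 with the length trend removed. Leaving out replicate 2 of TIS sEV gave -0.38, leaving out replicate 3 of TIS sEV gave -0.027 and leaving out replicate 3 of saline gave -0.094. Gdf15 (chromosome 8, 70629393 to 70632456), a secreted stress cytokine, stayed between 0.0449 and 0.443 deposited TPM in every library and was not tested.

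**Figure D3:**
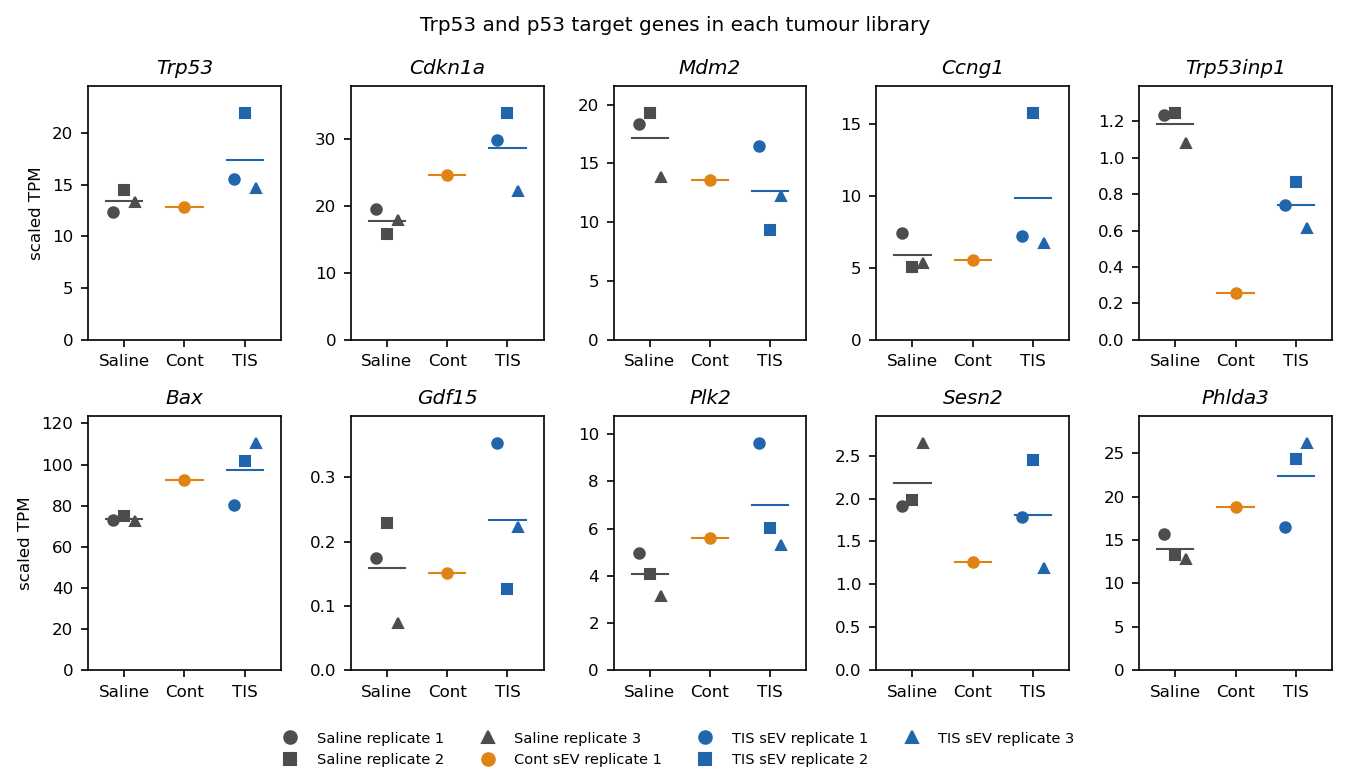
Scaled TPM (y axis, from 0) of Trp53 and 9 p53 target genes in saline, Cont sEV and TIS sEV tumours, with 1 symbol per library and a bar at the group mean. TIS sEV values lie above all saline values for Trp53, Cdkn1a, Bax, Plk2 and Phlda3 and below them for Trp53inp1, and overlap with saline for the other 4 genes.

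Of the 10 genes, 9 were tested and 0 passed an adjusted p of 0.05 in limma for TIS sEV against saline, where 0% of the 12058 tested genes passed. At an unadjusted p under 0.05 there were 3 of the 9 (Cdkn1a, Plk2 and Phlda3), against 14.8% of tested genes. All 3 were higher, where 8.27% of tested genes were, and 0 were lower, where 6.5% were. Groups did not overlap for 6 of the 9, against 23.7% of tested genes. Of these 6, Trp53, Cdkn1a, Bax, Plk2 and Phlda3 were higher, where 11.4% of tested genes were, and Trp53inp1 was lower, where 12.3% were. With the length trend removed, 4 of the 9 (Trp53, Cdkn1a, Plk2 and Phlda3) did not overlap, against 19.4%, but the gaps were narrow. The lowest corrected TIS sEV value and the highest saline value were 3.98 and 3.93 (log2) for Trp53. They were 4.45 and 4.43 for Cdkn1a, 2.63 and 2.59 for Plk2, and 4.17 and 4.17 for Phlda3. In deposited TPM only Trp53inp1 did not overlap, 1 of 9 against 14.3%. With TPM rescaled over protein-coding genes, the differences were 0.023 for Trp53, 0.066 for Bax, 0.28 for Ccng1, 0.32 for Phlda3 and 0.38 for Plk2, and -0.43 for Sesn2, -0.51 for Trp53inp1 and -0.73 for Mdm2. The median difference of the 9 was 0.39, with 6 above 0, beside -0.0037 and 49.6% for all tested genes. The filter admitted Trp53inp1 through saline, and the members were chosen with earlier results of these data known. These counts and the median therefore describe the set and are no test of it.

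**Figure D4:**
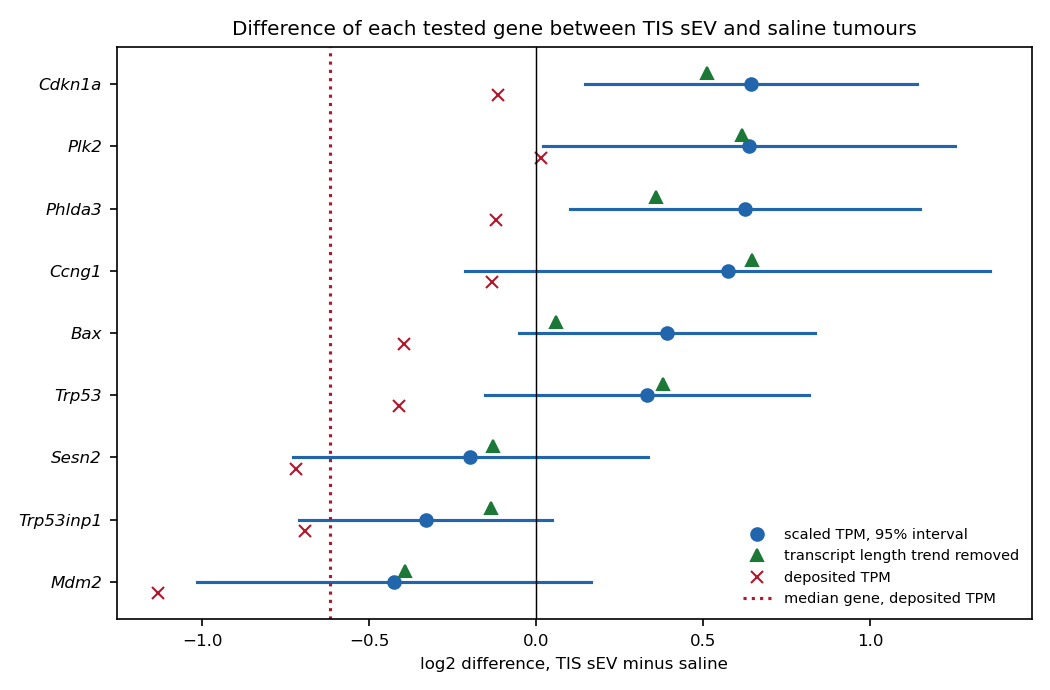
Log2 difference between TIS sEV and saline tumours (x axis) for the 9 tested genes, as scaled TPM with the 95% limma interval (circles and bars), with the transcript length trend removed (triangles) and in deposited TPM (crosses). Intervals exclude 0 for Cdkn1a, Plk2 and Phlda3 before adjustment, and the deposited values are shifted towards the median gene at -0.62 (dotted line).

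The single Cont sEV library was compared with both other groups, with the spread borrowed from them. Against saline 0 of the 9 passed in limma (0.00829% of all tested genes did), and 1 had an unadjusted p under 0.05 (12.8% of all), in the lower direction (5.34% of all). That gene was Trp53inp1, with a difference of -0.80 (SE 0.23, limma unadjusted p = 0.00942, adjusted p = 0.359), and it is the one admitted to the test through saline alone. With the length trend removed its difference was -0.58 (unadjusted p = 0.0505). Differences from saline were 0.45 for Cdkn1a, 0.41 for Phlda3, 0.40 for Plk2, 0.33 for Bax, -0.052 for Trp53 and -0.30 for Mdm2, and 4 of the 9 lay above 0 (49.8% of all). Removing the length trend gave 0.28 for Cdkn1a, 0.096 for Phlda3, 0.36 for Plk2, -0.047 for Bax, -0.021 for Trp53 and -0.29 for Mdm2. With TPM rescaled over protein-coding genes the differences of Cdkn1a, Phlda3, Plk2 and Bax were -0.040, -0.074, -0.030 and -0.19. TIS sEV against Cont sEV also gave 0 of the 9 in limma (0.00829% of all), and 0 at an unadjusted p under 0.05 (4.86% of all, 1.97% higher and 2.89% lower), with 8 of the 9 above 0 (49.5% of all). There Cdkn1a differed by 0.19 (95% interval -0.51 to 0.89), Bax by 0.065 (0.11 with the length trend removed), Phlda3 by 0.21 and Trp53 by 0.38. The intervals are wide, so these data do not show that the 2 kinds of vesicle acted alike. The 2 comparisons share the Cont sEV library, and the first shares saline with the main one.

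Scaled levels set the genes in nearly the same order in both replicated groups. With saline the means ran from Bax (73.4) through Cdkn1a (17.8), Mdm2 (17.1), Phlda3 (13.9), Trp53 (13.4), Ccng1 (5.94), Plk2 (4.06), Sesn2 (2.18) and Trp53inp1 (1.19) to Gdf15 (0.158). Cdkn1a and Mdm2, Phlda3 and Trp53, and Ccng1 and Plk2 are neighbours with SDs of 0.914 to 2.92, and only the values of Ccng1 and Plk2 did not overlap. With TIS sEV, Mdm2 (12.7 ± 3.61) came after Cdkn1a (28.7 ± 5.94), Phlda3 (22.3 ± 5.12) and Trp53 (17.4 ± 3.95, SD, n = 3 each), with overlap between Mdm2 and Trp53. Spread within a group was widest for Ccng1 with TIS sEV (51.4% of the mean) and narrowest for Bax with saline (1.6%).

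A longer list of 43 p53 target genes, which includes 9 of the set, was spread to both sides of 0. Of 36 tested, 0 passed in limma, 19 differences were above 0 and 17 below, and the median was 0.029 beside -0.0037 for all genes. Among the 28 tested targets outside the set the median was 0.0057, with 14 on each side. The smallest unadjusted p belonged to Dcxr, a xylulose reductase, at 11.6 ± 1.30 scaled TPM with saline and 32.0 ± 16.3 with TIS sEV (SD, n = 3 each, difference 1.29, limma unadjusted p = 0.00732, adjusted p = 0.338). Xpc, a sensor of DNA lesions in nucleotide excision repair, went the other way, at 4.97 ± 0.549 and 3.23 ± 0.251 scaled TPM (difference -0.49, limma adjusted p = 0.338). Of the genes named from this and the following lists, Kat5, Cdkn2d, Bak1, Bad, Birc5, Atf3, Ddit3 and Atf4 had differences above 0 in scaled TPM but below 0 in deposited TPM.

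The regulators of p53 were likewise divided. Of 18 tested, 9 differences lay above 0 and 9 below, 0 passed in limma and the median was -0.042. Kat5, an acetyltransferase that modifies p53, was at 17.5 to 17.8 scaled TPM with saline and 22.9 to 25.8 with TIS sEV (difference 0.43). The ubiquitin ligase gene Cop1 (-0.73), the coactivator gene Ep300 (-0.53) and Trp53bp1 (-0.36), which encodes a p53-binding repair protein, had lower TIS sEV means. The longest transcripts of Ep300 and Trp53bp1 have 9566 and 9621 bases, and with the length trend removed their differences were -0.25 and -0.079. Trp63 and Trp73, the relatives of Trp53, and Cdkn2a, whose Arf product inhibits Mdm2, were not tested for low values.

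Of 7 cyclin-dependent kinase inhibitor genes, 4 were tested and 0 passed in limma. Cdkn1b, the gene for p27, was at 23.6, 17.8 and 17.5 scaled TPM with saline, 14.8 with Cont sEV and 9.48, 10.4 and 12.9 with TIS sEV. All TIS sEV values lay below all saline values, opposite to Cdkn1a, with a difference of -0.79 (SE 0.21, limma unadjusted p = 0.00632, adjusted p = 0.338) and -0.64 with the length trend removed. Cdkn2d differed by 0.34 (0.074 with the length trend removed) and Cdkn2c by -0.40. Among 15 tested genes of the BCL2 family, to which Bax belongs, 11 were above 0 and 4 below, the median was 0.27 and 0 passed. Bak1, the other main pore former, was at 19.0 to 26.6 scaled TPM with saline and 31.8 to 33.5 with TIS sEV (difference 0.60). The death-promoting Bad (0.75) had a higher TIS sEV mean, while Bcl2l11, the gene for Bim, and Bmf had lower ones (-0.80 and -0.73), with limma adjusted p of 0.338 to 0.361 for these 4 genes. Bmf reached 1 deposited TPM only in the saline libraries and TIS sEV replicate 3. It thus entered the test through saline, where it is high, and its difference supports nothing by itself. Its scaled TPM with saline was 1.53, 1.93 and 4.26.

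Genes that p21 lowers through the DREAM repressor complex, which shuts down the cell cycle, had a median of -0.23 in TIS sEV against saline, with 15 of 22 below 0 and 0 passing in limma. The smallest p belonged to Birc5, the gene for survivin, which went against that majority (44.2 ± 3.14 with saline and 63.6 ± 3.11 with TIS sEV, scaled TPM, SD, n = 3 each, difference 0.52). Lmnb1, a nuclear lamin gene whose loss marks senescent cells, differed by -0.58, Bub1 by -0.75 and Kif23 by -0.55. The Cont sEV library stood higher than both groups for this list. Its median was 0.76 above saline with 21 of 22 above 0, and TIS sEV had a median of -0.97 against it with 22 of 22 below 0. At an unadjusted p under 0.05 these were 7 of 22 genes (7.42% of all tested genes in that direction) and 14 of 22 (2.89%), with 0 passing in either. Both contrasts rest on the same 1 library.

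The integrated stress response, the ATF4 pathway that also drives Sesn2 and Gdf15, had 10 of 13 genes tested, 6 above 0 and 4 below, a median of 0.23 and 0 passing in limma. Ppp1r15a, which restarts protein synthesis after stress, was at 34.8, 20.1 and 21.2 scaled TPM with saline and 38.2, 37.4 and 56.7 with TIS sEV (difference 0.79, limma adjusted p = 0.338). Atf3 differed by 0.60, Ddit3 by 0.47 and Atf4 by 0.33, each with overlapping groups. With the length trend removed Ddit3 differed by 0.12 and Atf4 by 0.19, and the list's median was 0.0046.

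**Figure D5:**
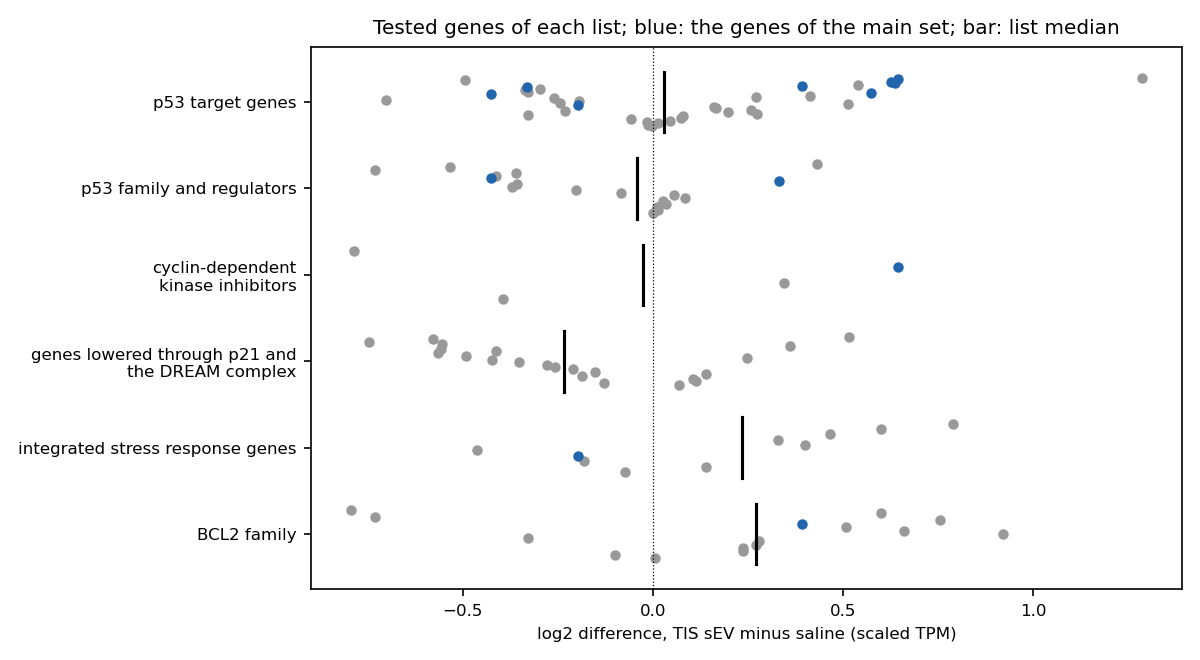
Log2 differences in scaled TPM between TIS sEV and saline tumours (x axis) for the tested genes of 6 gene lists (y axis), 1 point per gene, with blue points for the set described here and a black bar at each list's median. The p53 target list is centred near 0 (median 0.029), and the medians of the other lists run from -0.23 to 0.27.

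Profiles were compared over the 7 libraries by the root mean square difference of log2(scaled TPM + 1), after subtracting each gene's mean. This was done among the 7246 tested protein-coding genes with a mean of at least 5 TPM, Cdkn1a and Trp53 included. Closest to Cdkn1a were Dnajc2, a ribosome-associated chaperone (0.066), Ntan1, an asparagine amidase (0.11), 4930453N24Rik (0.12), Cyb5r3, a cytochrome b5 reductase (0.13), and Acot13, a thioesterase (0.13), where the median gene was at 0.46. Closest to Trp53 were the helicase gene Ddx41 (0.040), Mdh1, a malate dehydrogenase (0.059), Tmem234 (0.063), Atpaf1, an assembly factor of ATP synthase (0.063), and Dnajc24 (0.074), with a median of 0.40. None of the 10 is in the p53 target list. That list holds only 43 genes, few beside all those compared, so this is no result about p53 targets. Within the set the closest pair was Bax and Phlda3 (0.15) and the most distant was Mdm2 and Ccng1 (0.72).

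Cell content differed between libraries as well. All 8 epithelial and tumour cell markers reached 1 TPM in at least 1 library, Krt5 only with Cont sEV (1.41 TPM). Their summed level was 1418 to 2792 scaled TPM with saline and 1459 to 2425 with TIS sEV. Sums overlapped for macrophages (498 to 1135 and 382 to 1615), neutrophils (761 to 5870 and 1373 to 2673), fibroblasts (26.1 to 109 and 45.1 to 66.9) and endothelial cells (26.0 to 38.7 and 29.4 to 109). They did not overlap for B and plasma cells (1.57 to 7.05 with saline, 38.8 with Cont sEV and 23.1 to 416 with TIS sEV) or T cells (16.9 to 22.5, 19.9 and 27.2 to 62.6), of which 3 of 6 and 6 of 7 markers reached 1 TPM in any library. The T cell markers were divided in TIS sEV replicate 2. Trbc2 was at 15.7 scaled TPM there, against 4.05 to 5.63 with saline, and Cd4 (0.571) was also above the saline range. Cd3d, Cd3g and Trac were within that range, and Cd3e (0) and Cd8a (1.46) were below it. The part of these leukocyte genes in the levels of Cdkn1a, Phlda3 and Plk2 was not tested. Sums of skeletal muscle, adipocyte, keratinocyte and erythroid markers overlapped between saline and TIS sEV. Of the keratinocyte markers Krt1 was listed at 0 throughout.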

How the data were processed

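RNA of tumours was analysed in 7 libraries from 1 table of TPM values deposited by the authors, 1 column per library. The submitters' processing notes name Salmon 1.4.0, DESeq2 1.28.0, Trim Galore 0.6.6, FastQC 0.11.9 and the build GRCm38.p6, with no roles. The transcript annotation is not given in the sources used here. TPM keeps no read numbers, so sequencing depth could not be read from the table, and intervals for counting error are left out. Columns CE and NcE were read as Cont sEV and TIS sEV, which the labels do not spell out.

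Symbols and coordinates came from GENCODE M21 (GRCm38), which held 55141 of 55487 identifiers. Genes at 1 TPM or more in at least 3 libraries were tested (12058) on log2(TPM / size factor + 1) with limma 3.58.1 (R 4.3.3). One mean per group, 4 residual degrees of freedom, an intensity trend, two-sided tests and Benjamini-Hochberg adjustment were used. Size factors were applied because with deposited TPM a difference of 0 is not the level of the median gene. Samples were grouped by their titles. The test was tried on simulated data for the TIS sEV and saline contrast (12058 genes). It called 77 of 100 genes given a log2 change of 2, 95 of 100 given 4, and 7 of 11858 given none. Changes as small as the differences of the set were not simulated, so the rate of calls at that size is not known.

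The members and the gene lists were chosen with earlier results of these data known. All members were named, with up to 4 genes of each list by smallest unadjusted p and the 5 closest profiles to Cdkn1a and Trp53. Removing the length trend (a lowess on log10 length of the longest transcript, per library) and the ratios were chosen after seeing the data. Same-numbered saline and TIS sEV libraries deviated from their group means with r of -0.34, -0.012 and 0.070 across genes, and the numbers were not taken as pairs. Entries that overlap Cdkn1a, Bax and Sesn2 in the annotation (AC167363.2, Gm45808 and Gm12981) did not exceed 0.0622 TPM.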

Additional observations from a re-analysis of the deposited data

How the results depend on the processing

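No member of the set passed under any of the alternatives run, in any of the 3 comparisons. In TIS sEV against saline, Mdm2, Plk2 and Sesn2 kept their direction under all 17, and Trp53inp1 under the 16 that tested it. The difference of Plk2 was only 0.016 with deposited TPM. The median of the set (0.39) was -0.40 with deposited TPM and 0.066 with TPM rescaled over protein-coding genes, and 0.22 to 0.44 without 1 library, lowest without TIS sEV replicate 2. With deposited TPM, differences between TIS sEV and saline were -0.41 for Trp53, -0.11 for Cdkn1a, -0.13 for Ccng1, -0.40 for Bax, -0.12 for Phlda3, -0.32 for Kat5, -0.41 for Cdkn2d, -0.26 for Birc5, -0.13 for Atf3, -0.31 for Ddit3, -0.46 for Atf4, -0.16 for Bak1 and -0.026 for Bad. Atf4 was at -0.041 with quantile normalization. Differences between TIS sEV and Cont sEV were -0.19 for Cdkn1a, -0.33 for Bax, -0.056 for Plk2 and -0.16 for Phlda3 with deposited TPM, and 0.060 for Mdm2 with rescaling over coding genes. Without 1 library, Mdm2 ranged there from -0.32 to 0.061 (without TIS sEV replicate 2) and Bax from -0.022 (without TIS sEV replicate 3) to 0.20. Differences between Cont sEV and saline were -0.067 for Bax with deposited TPM, 0.020 for Ccng1 and -0.086 for Bax with quantile normalization, -0.040 for Cdkn1a, -0.19 for Bax, -0.030 for Plk2 and -0.074 for Phlda3 with rescaling over coding genes, and -0.047 for Bax with the length trend removed. Without 1 library, Ccng1 ranged there from -0.16 to 0.073 (without saline replicate 1) and Trp53 from -0.11 to 0.0016 (without saline replicate 2). With the replicate number as a block, Mdm2 was at 0.13 and Bax at -0.073 against Cont sEV, and Trp53 at 0.067 in Cont sEV against saline. The block called 0 members, and the numbers are not known to pair the libraries. The cause of these turns was not tested. Over all genes, calls for TIS sEV against saline were 0, but 62 with deposited TPM and 4 without TIS sEV replicate 1. For TIS sEV against Cont sEV and Cont sEV against saline they were 1 each, but 27 and 25 with deposited TPM, 280 and 293 with no filter 5 and 4 with a mean of at least 1 TPM, 2 each with rescaling over coding genes, 1 and 2 with quantile normalization and 0 each with the block, and 0 to 2 and 0 to 1 without 1 library. With no filter, 1 and 2 of the DREAM genes and 1 kinase inhibitor gene (Cont sEV against saline) were among the calls. In the fits on deposited TPM, limma put an infinite weight on the shared intensity trend (3.04 prior degrees of freedom in the main fit). Each gene there took its spread from the trend alone, so those counts of calls are not comparable with the main ones. Leaving out Cont sEV replicate 1 gives no value for its own comparisons. How depth limits the scarce genes was not tested, since TPM does not keep it.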
